A study of Mus musculus with 2 samples.

Results

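Autophagy genes were followed in whole pancreas with a conditional, Ptf1a-Cre-driven deletion of Nrdc, beside WT pancreas. Nrdc encodes the metalloendopeptidase nardilysin. The set holds 10 genes, listed by name and read from every RefSeq probe on the arrays, out of 22911 genes with a named probe and 13001 genes measured on both arrays. The members are Ulk1, Becn1, Vmp1, Atg7, Atg5, Atg12, Map1lc3a, Map1lc3b, Gabarapl1 and Sqstm1. All 10 were measured on both arrays, through 15 of their 16 probes.

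The study profiled whole pancreas of male C57BL/6 mice aged 5 weeks on Agilent 1-colour arrays, with the role of nardilysin in the exocrine gland as its question. The WT group is 1 array. The Nrdc-cKO group is 1 array from a mouse with Ptf1a-Cre and loxP-flanked Nrdc (Nrdcflox/flox), in which Cre recombinase under Ptf1a acts in pancreatic progenitors and in the cells they give rise to. The labels do not say whether the WT mouse carried Cre or the flanked allele, or whether RNA of several animals was pooled. With 1 array a group the spread between animals is unknown, nothing could be tested, and each value below describes these 2 arrays.

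Macroautophagy encloses portions of the cytoplasm in a double membrane and delivers them to the lysosome. A kinase complex around Ulk1 starts the membrane, a lipid kinase complex around Becn1 marks it, ubiquitin-like conjugation enzymes attach proteins of the ATG8 family to it, and cargo receptors such as Sqstm1 bind what is to be degraded. In the exocrine pancreas the pathway is known for removing zymogen granules and damaged organelles, and its disturbance is a known feature of pancreatitis.

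A level is given as the log2 of the processed signal relative to the 75th percentile of the same array, and a difference is Nrdc-cKO minus WT on that scale. A gene's value is the mean over its probes well above background on both arrays. Differences carry the error that the scanner software assigns to the spots, which leaves out animal, dissection and labelling, and which ran from 0.14 to 0.21 for the members. A gene was counted as higher or lower from a difference of 1 upwards in size, which is 2-fold. The 75th percentile of signal was 70.8 in WT and 227.5 in Nrdc-cKO, 3.21-fold higher, so directions are relative to the bulk of probes. The share of non-control spots well above background was 46.3% for WT and 60.3% for Nrdc-cKO.

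Nrdc itself stood at 1.93 in WT and -1.28 in Nrdc-cKO, a difference of -3.21 ± 0.21 from 1 probe. With spike-in scaling it was -1.31. Which exons are removed is not in the labels, so whether this probe lies inside the deletion is unknown, and the value describes the signal at this probe only.

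Relative to the 75th percentile, 8 of the 10 autophagy genes were within 2-fold of their WT level on the Nrdc-cKO array, 0 were at least 2-fold higher, and Map1lc3b and Ulk1 were at least 2-fold lower. With scaling to the spike-in controls 8 were at least 2-fold higher, where 10381 of the 13001 genes were. In that scaling, which rests on the median of 8 spike-in probes, 0 were lower and all 10 lay above 0. In 5 further scalings 0 were lower and 0 higher, so each level and direction below holds for the 75th percentile unless another scaling is named. The RNA is from whole pancreas, so fewer cells of a type and less RNA per cell cannot be told apart. Over all 13001 genes 17.3% were at least 2-fold lower and 12.8% at least 2-fold higher, so the members' 20% lower was near the share of all genes. Those shares are 2252 lower and 1666 higher genes, a balance that became 1074 and 2888 in the authors' value table, where every gene stands 0.50 higher, and 115 and 10381 with spike-in scaling. The member differences ran from -1.19 to 0.43 with a median of -0.07, against a median of -0.18 over all genes, and 4 members lay above 0 and 6 below. For 5 members the difference was within 2 scanner errors of 0 in this scaling.

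**Figure D1:**
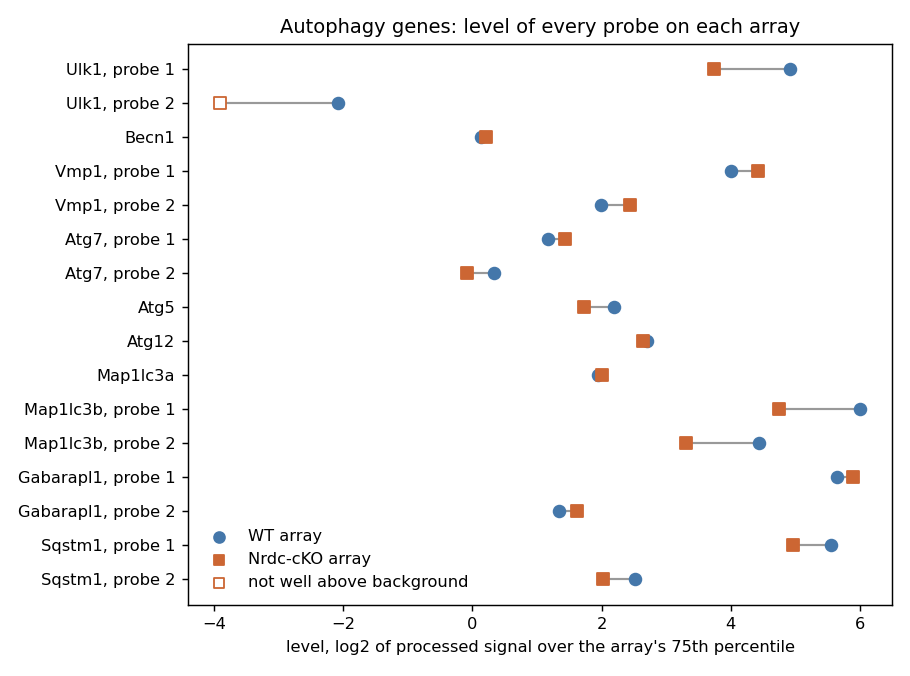
Level of each of the 16 member probes on the WT array (circles) and the Nrdc-cKO array (squares), as log2 of processed signal over the array's 75th percentile, with a line joining the same probe and probe 1 being the brighter on the WT array. The Map1lc3b and Ulk1 probes have the longest lines, towards lower levels on the Nrdc-cKO array in this scaling (not with spike-in scaling), and the open square is the Ulk1 probe that was not well above background there.

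The members farthest from 0 in either direction were Map1lc3b and Ulk1 below it and Vmp1 above it. The 250 bases before their starts are shown so that the sequence in front of these genes can be read beside their values. They come from RefSeq on build GRCm38.p6 and are written in the direction of the gene, and the table used held 7 of the members. The other members, Map1lc3a, Becn1 and Atg12, are not shown. Capitals mark a match to the antioxidant response element core TGACNNNGC on either strand. The Map1lc3b window lies at chr8:121590188-121590437 on the plus strand, the Ulk1 window at chr5:110810082-110810331 on the minus strand, and the Vmp1 window, the outermost of its 3 in the table, at chr11:86683837-86684086 on the minus strand.
Map1lc3b: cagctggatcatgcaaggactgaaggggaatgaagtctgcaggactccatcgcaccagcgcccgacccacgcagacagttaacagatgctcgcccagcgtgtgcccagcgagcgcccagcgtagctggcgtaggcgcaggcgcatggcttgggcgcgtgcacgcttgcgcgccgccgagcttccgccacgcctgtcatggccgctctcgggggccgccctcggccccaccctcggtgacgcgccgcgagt
Ulk1: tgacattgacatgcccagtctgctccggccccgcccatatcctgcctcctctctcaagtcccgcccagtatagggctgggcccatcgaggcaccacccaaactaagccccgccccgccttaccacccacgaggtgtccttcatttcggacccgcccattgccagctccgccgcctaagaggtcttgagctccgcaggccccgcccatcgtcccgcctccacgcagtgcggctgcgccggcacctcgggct
Vmp1: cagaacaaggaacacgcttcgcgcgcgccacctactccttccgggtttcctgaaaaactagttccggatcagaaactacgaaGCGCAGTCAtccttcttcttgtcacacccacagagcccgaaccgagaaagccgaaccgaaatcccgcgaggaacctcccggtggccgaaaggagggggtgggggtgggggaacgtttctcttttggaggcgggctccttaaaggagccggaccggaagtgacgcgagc

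The windows were also searched on both strands for the E-box CACGTG, a sequence that the lysosomal regulator TFEB and other factors can bind, and for the C/EBP-ATF element TGATGNAA, which stress-response factors can bind. Neither sequence, nor the antioxidant core, was present in the Map1lc3b or Ulk1 window. The antioxidant core was present in each of the 3 Vmp1 windows, and in 10.2% of all 32851 windows of that length. The E-box was present in the windows of Atg7, 132 bases before the start, and Atg5, 14 bases before it, and in 6.02% of all windows. The C/EBP-ATF element was present in 0 of the 9 member windows and in 3.45% of all windows. No matches overlapped in these windows. A match describes letters only, and no binding was measured.

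The initiation kinase Ulk1, which integrates nutrient and energy signals, was lower on the Nrdc-cKO array except with spike-in scaling and without scaling between arrays. Its bright probe had a processed signal of 2137 in WT and 3024 in Nrdc-cKO. Relative to the 75th percentile this was a level of 4.92 in WT and 3.73 in Nrdc-cKO, a difference of -1.18 ± 0.20 (2.27-fold lower; a log2 difference of 0.71 with spike-in scaling). A second Ulk1 probe was dim, at -2.08 on the WT array, and was not well above background on the Nrdc-cKO array. Its signal was 16.8 in WT and 15.2 in Nrdc-cKO. Relative to the 75th percentile its difference was -1.83 ± 0.43, or 3.55-fold higher in WT. This rests on its own level on the Nrdc-cKO array, which was not well above background, so it is not a minimum. With spike-in scaling the log2 ratio of WT over Nrdc-cKO for this probe was -0.07. The difference of Ulk1 lay at the 13.0 percentile of all genes.

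Becn1 encodes Beclin 1, the scaffold of the class III phosphatidylinositol 3-kinase complexes. Its level was 0.13 in WT and 0.21 in Nrdc-cKO, a difference of 0.07 ± 0.21 from 1 probe. This was less than the scanner error, but the difference was 1.97 with spike-in scaling and 0.57 in the authors' value table.

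Vmp1, a membrane protein of the endoplasmic reticulum that is needed for autophagosome formation and is known to be induced in pancreatitis, had the highest difference of the members. Its probes stood at 4.01 and 1.99 in WT and at 4.42 and 2.44 in Nrdc-cKO. The difference was 0.43 ± 0.14 (1.34-fold), with the probes at 0.41 and 0.45. It was 0.92 in the authors' value table, and past 2-fold, at 2.32, with spike-in scaling. In the RefSeq table the microRNA gene Mir21a lies within Vmp1, and whether transcripts of that gene reach these probes was not tested.

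Of the ubiquitin-like conjugation genes, Atg7 and Atg12 lay near 0. Atg7, the E1-like enzyme that activates Atg12 and the ATG8 proteins, had probes that disagreed in sign, at -0.42 for a probe of one transcript record and 0.27 for a probe of another, with a mean of -0.07 ± 0.15. It was the only member among the 5 with 2 probes on both arrays whose probes differed in sign. Atg12, the ubiquitin-like protein joined to Atg5, stood at 2.70 in WT and 2.64 in Nrdc-cKO, a difference of -0.06 ± 0.20. Atg12 turned sign in each of the 8 alternative scalings. Atg7 did so except with quantile scaling (-0.02) and with scaling to the median of probes detected on both arrays (-0.01). In the deposited value table of the authors Atg7 was at 0.42 and Atg12 at 0.44, and with spike-in scaling at 1.82 and 1.84.

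Atg5, the acceptor of Atg12, stood at 2.19 in WT and 1.73 in Nrdc-cKO. The difference of -0.46 ± 0.20 was over 2 scanner errors from 0 and within 2-fold. In the authors' value table it was 0.04 and with spike-in scaling 1.44, so its direction depended on the scaling.

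The 3 members that encode ATG8 proteins, which are anchored in the autophagosome membrane, differed in the main scaling. Map1lc3b was lower there, while Map1lc3a and Gabarapl1 lay within 2 scanner errors of 0. With spike-in scaling all 3 lay above 0. Map1lc3b, the LC3 form widely used as a marker of autophagosomes, was measured by probes with signals of 4547 and 1530 in WT and 6129 and 2241 in Nrdc-cKO. Relative to the 75th percentile it stood at 5.22 in WT and 4.03 in Nrdc-cKO, a difference of -1.19 ± 0.14 (2.29-fold lower; a log2 difference of 0.70 with spike-in scaling), with the probes at -1.25 and -1.13. This was the lowest difference of the members and lay at the 12.8 percentile of all genes.

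Map1lc3a, a related LC3 form, stood at 1.95 in WT and 2.0 in Nrdc-cKO, a difference of 0.06 ± 0.20 from 1 probe. Gabarapl1, of the GABARAP branch of the family, stood at 3.50 in WT and 3.75 in Nrdc-cKO, a difference of 0.26 ± 0.14. Its probes stood at 0.24 and 0.27. With spike-in scaling Map1lc3a was at 1.95 and Gabarapl1 at 2.15. Transcripts of close relatives or processed copies may bind the probes of an ATG8 gene, which leaves the value of each such gene uncertain.

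Sqstm1 encodes p62, a cargo receptor that binds ubiquitinated proteins and LC3 and is itself degraded by autophagy. Its probes stood at 5.55 and 2.52 in WT and at 4.96 and 2.02 in Nrdc-cKO. The difference was -0.54 ± 0.14 (1.45-fold lower), with the probes at -0.59 and -0.49. It was -0.04 in the authors' value table, -0.05 with normexp and the 75th percentile, and above 0, at 1.36, with spike-in scaling, so its direction depended on the scaling. The p62 protein was not measured here.

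The direction for Map1lc3b and Ulk1 depended on how the arrays were scaled. Before any scaling each of the 15 probes was brighter on the Nrdc-cKO array, from 1.35-fold to 4.38-fold. With scaling to the spike-in controls, which adds 1.90 to every gene, Map1lc3b stood at 0.70 and Ulk1 at 0.71, and 8 of 10 members were at least 2-fold higher, where 10381 of all genes were. In the other 7 of 8 alternative scalings both genes stayed below 0, from -0.65 to -1.13 for Map1lc3b and from -0.69 to -1.12 for Ulk1, and past 2-fold in 2 of them. Relative to the median of all genes, which a shift of the whole array leaves unaltered, Map1lc3b stood between -1.01 and -0.59 and Ulk1 between -1.0 and -0.63 in all 9 scalings. Of these 9, 5 shift all genes alike and give the same values relative to that median, so only the other 4, quantile scaling, loess and normexp followed by either scaling, can alter them.

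Vmp1, Gabarapl1, Map1lc3a, Becn1, Atg7 and Atg12, 6 of the members, lay above the median of all genes in the main scaling and in each of these 4. Vmp1 stood highest there, 0.61 to 0.90 above it. Sqstm1 and Atg5 lay below it except for a value 0.02 above it with normexp and the 75th percentile.

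**Figure D2:**
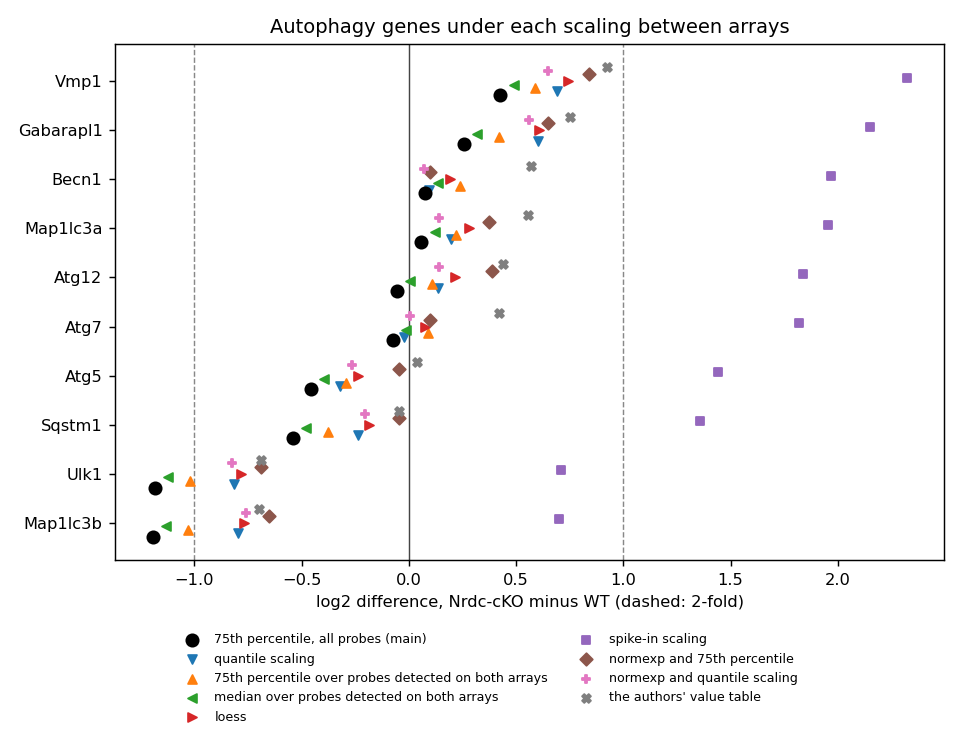
Log2 difference, Nrdc-cKO minus WT, of each member under the main scaling (black circles) and 8 alternative scalings, with dashed lines at 2-fold. Map1lc3b and Ulk1 lie below 0 except with spike-in scaling, at 0.70 and 0.71, and Vmp1 lies highest under every scaling shown.

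The wider machinery, a list of 58 genes in 7 steps that holds the members, was measured in full on both arrays. Of these genes 10 (17.2%) were at least 2-fold lower, near the 17.3% of all genes, and 0 were at least 2-fold higher, against 12.8% of all genes. The list median was -0.44 against -0.18 for all genes, and 37 of 58 lay below that median. The list median was -0.22 against -0.06 with normexp and the 75th percentile, 0.05 against 0.31 in the authors' value table, and 1.45 against 1.71 with spike-in scaling. Without the members 8 of 48 were lower, with a median of -0.50. With spike-in scaling 0 of the 58 genes were lower and 47 higher, where 115 and 10381 of the 13001 genes were. Each of the 10 lower genes named here stood above 0 in that scaling.

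Cargo receptors held the differences farthest below 0 in the machinery. Here 3 of 12 (25%) were past 2-fold on the lower side, where 17.3% of all genes were, and 0 on the higher side, where 12.8% were. The median was -0.45, which became 0.05 in the authors' value table. Retreg1, a receptor for the degradation of endoplasmic reticulum by autophagy, stood at 4.66 in WT and 2.84 in Nrdc-cKO, a difference of -1.82 ± 0.14 with probes at -1.83 and -1.81. Ccpg1, another receptor of the endoplasmic reticulum, stood at 2.83 in WT and 1.30 in Nrdc-cKO, a difference of -1.53 ± 0.12 with 3 probes from -1.59 to -1.43. Nbr1, a receptor for ubiquitinated cargo related to Sqstm1 in function, was at -1.79 ± 0.23, with probes at -2.0 and -1.58. The difference of Sqstm1, -0.54, was smaller in size than these.

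Among the 5 ATG8 genes 2 were lower, Map1lc3b and Gabarap, the latter at -1.03 ± 0.20 with levels of 6.76 in WT and 5.73 in Nrdc-cKO. Gabarap was past 2-fold in 3 of 11 alternatives, all of which kept the main scaling and its value. It was past 2-fold in no alternative scaling, with -0.37 by quantile scaling and -0.48 by loess. The share of lower genes, 40% of 5, stood beside 17.3% of all genes, and it was 0% in 6 of the 8 alternative scalings. The median of the family was -0.89. Of the 11 conjugation genes 10 lay below 0, with a median of -0.51. The protease Atg4d, which processes ATG8 proteins, was the only one past 2-fold, at -1.48 ± 0.20. This is 9.09% lower and 0% higher, beside 17.3% and 12.8% of all genes.

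The 5 genes of the initiation kinase complex had a median of -0.52, with Ulk1 as the only one past 2-fold (20%, beside 17.3% of all genes lower). Among 10 genes of membrane supply and phosphoinositide binding 2 (20%) were lower, near the 17.3% of all genes. They were the lipid scramblase Atg9b at -1.23 ± 0.21 and the phosphoinositide-binding protein Wipi1 at -1.06 ± 0.16, with Wipi1 probes at -1.22 and -0.90. Wipi1 was past 2-fold in 2 of 11 alternatives, with -0.89 by loess and -0.57 in the authors' value table, and Atg9b in 5 of 10. Vmp1 had the highest difference of these 10.

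The class III PI3-kinase genes had a median of 0.08 over 8 genes, the highest of the steps in all 9 scalings. The other steps had medians below 0 in the main scaling, while in the authors' value table those of cargo receptors, membrane supply and fusion lay above 0, as all did with spike-in scaling. The catalytic subunit Pik3c3 was the only gene of this step past 2-fold (12.5% of 8, beside 17.3% of all genes lower). It stood at -1.11 ± 0.21, past 2-fold in 4 of 10 alternatives, beside its partner Becn1 at 0.07. Of the 7 genes for fusion with lysosomes 0 were past 2-fold, where 17.3% of all genes were lower and 12.8% higher. Their median was -0.35.

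**Figure D3:**
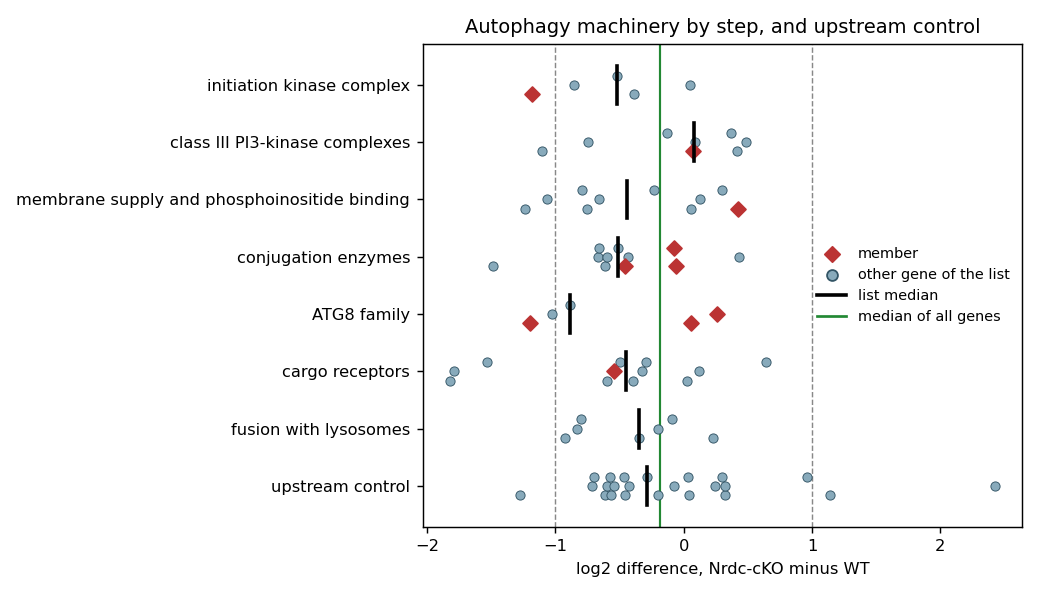
Log2 difference, Nrdc-cKO minus WT, of each gene of the autophagy machinery by step and of the upstream control list, with members as diamonds, list medians as black bars, the median of all genes (-0.18) as a line and 2-fold as dashed lines. In this scaling no gene of the machinery lies to the right of 2-fold, and Trp53inp1 (2.43) and Nfe2l2 (1.14) do in the control list.

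Genes that control autophagy from outside the machinery were measured in full, 23 of 23. On the higher side 2 (8.70%) were past 2-fold, against 12.8% of all genes, and on the lower side 1 (4.35%), against 17.3%. The median was -0.29, and it lay above 0 by loess (0.03), with spike-in scaling (1.61) and in the authors' value table (0.21). Trp53inp1, a stress-induced p53 target whose product binds ATG8 proteins, stood at 0.91 in WT and 3.34 in Nrdc-cKO. Its difference of 2.43 ± 0.15, with probes at 2.12 and 2.74, was the largest in size of the control list, and it stayed between 2.28 and 4.32 in the alternatives.

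Nfe2l2, which encodes the antioxidant factor NRF2, stood at 1.94 in WT and 3.08 in Nrdc-cKO, a difference of 1.14 ± 0.20. Sqstm1, a known NRF2 target, was at -0.54 (1.36 with spike-in scaling and -0.04 in the authors' value table). Deptor, an inhibitor of mTOR, the kinase that restrains autophagy, was lower at -1.27 ± 0.14, with probes at -1.30 and -1.24. Deptor was past 2-fold in 7 of 11 alternatives and stood above 0, at 0.62, with spike-in scaling.

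Cell type markers were read from the same RNA. The 12 acinar markers, which define the labelled tissue, were all detected on both arrays. In the Nrdc-cKO sample 12 of 12 were past 2-fold on the lower side, with a median of -1.89 (0.00 with spike-in scaling), led by the lipase Pnlip at -4.25 and the granule protein Gp2 at -3.93. The summed acinar level, in multiples of the 75th percentile signal, was 40018 in WT and 9733 in Nrdc-cKO. The acinar median was -0.97 by loess, -0.53 by quantile scaling and -0.55 by normexp and quantiles. Under both quantile scalings it lay above the differences of Map1lc3b (-0.80 and -0.76) and Ulk1 (-0.81 and -0.82), and in the main scaling below them. The part of acinar cells in either was not tested.

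Markers of islet, macrophage and fibroblast or stellate cells went the other way on the same arrays in the main scaling. Islet markers were higher in 11 of 11 measured, with a median of 4.04 and summed levels of 384 and 2987, led by Ppy (4.59) and Chgb (4.58). Macrophage markers were higher in 9 of 10, with a median of 2.61 and summed levels of 29.1 and 96.6, led by Ms4a7 (3.21) and Marco (2.98). Fibroblast and stellate markers were higher in 10 of 10, with a median of 2.01 and summed levels of 224 and 838, led by Lum (2.33) and Mmp2 (2.25). Their part in the autophagy values was not tested.

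Duct markers were higher in 2 of 8 and lower in 1, with a median of 0.70 and summed levels of 36.5 and 185, the higher ones being Spp1 (2.88) and Krt7 (1.26) and the lower one Cftr (-1.59). Spp1 alone made up 22.4 and 164 of these sums, and the other 7 markers 14.1 and 20.9. Of 8 adipocyte markers Plin4 (6.40) and Fabp4 (2.51) were higher and Lep (-1.87) lower, while 5 had signal above background only in the Nrdc-cKO sample, where Cfd was at least 1360-fold brighter. Their summed levels were 11.7 and 456. Lymphocyte markers had summed levels of 13.28 in WT and 13.29 in Nrdc-cKO, with 0 of 3 measured higher and 1 lower, Cd3e (-1.41) beside Cd4 (-0.59). Cd8a was detected on neither array, and 5 others in the Nrdc-cKO sample alone.

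**Figure D4:**
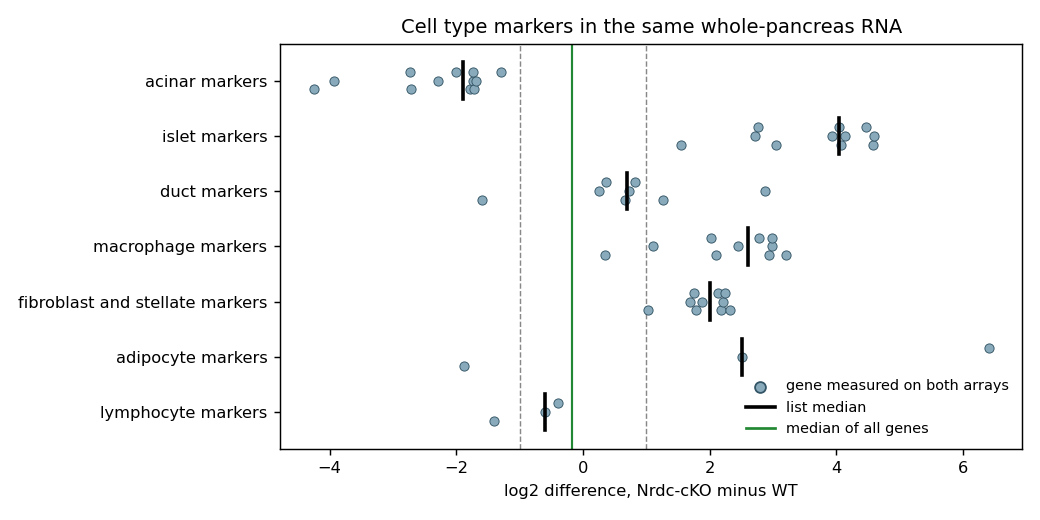
Log2 difference, Nrdc-cKO minus WT, of cell type markers measured on both arrays, with list medians as black bars, the median of all genes as a line and 2-fold as dashed lines. Acinar markers lie to the left of 2-fold, and islet, macrophage (except Csf1r at 0.35) and fibroblast markers to the right. The Csf1r value is the mean of probes at -0.46 and 1.15.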

How the data were processed

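Cy3-labelled cRNA from total RNA was read on Agilent 1-colour arrays, per the labels' protocols. Both arrays lay on 1 slide, per the file headers. The deposited scanner files hold a processed intensity per spot on a linear scale, corrected for background and spatial trend and not normalized between arrays. Per the file headers this was done with Agilent Feature Extraction version 12.0.3.1, while the submitters' processing notes name version 11.5.1.1. In the authors' deposited value table this intensity is multiplied by 1 factor an array (WT 4.37, Nrdc-cKO 1.92). The table is linear and uncentred, its column medians are 42.5 and 66.0, and the sources used here give no basis for the factors.

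Of 62976 spots 59305 were not controls. Outlier spots (115) were left out, 0 were saturated, and repeat spots were averaged. This left 56604 probes. The log2 signal was set relative to each array's 75th percentile. Detection asked for a share of at least 0.5 of a probe's spots flagged as well above background. Of 35885 probes with a RefSeq accession 32993 (91.9%) matched a gene of the RefSeq table (GRCm38.p6), in which Nrdc has an older symbol. The error of a difference combines the scanner software's errors of the spots. Over 291 probes with repeat spots the SD of the difference had a median of 0.032. A bound sets the bright array against the higher of the lowest detected level and the probe's own level on the other array.

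Members and lists were chosen with earlier results of these data known. Named genes are all members, the genes of the machinery and control lists past 2-fold (at most 6 each way a list), Nrdc, the 2 genes of each marker list measured on both arrays with the largest differences, and markers detected on neither array. Other genes (Krt7, Lep, Csf1r, Cfd) were named after their values were seen. Alternatives covered scaling, background correction, dim-probe filters, probe summary and threshold. The calculation was tested on simulated data with the same shift for all probes between arrays, which cannot test the choice of scaling. Python 3.11.15, R 4.3.3 and limma 3.58.1 (normexp with an offset of 50, loess) were used.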

Additional observations from a re-analysis of the deposited data

How the results depend on the processing

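No paired analysis was possible because there was 1 array a group, so leaving out a replicate was not done either. Naming probes by a gene name column was not run, for lack of that column in the files used. Values without scaling between arrays were added after the data were seen. For the differences between settings below, the cause was not tested unless one is named. Signal over background limits Ulk1, whose second probe was not well above background on the Nrdc-cKO array.

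With spike-in scaling, which adds 1.90 to every gene, higher and lower genes numbered 8 and 0 among the members, 47 and 0 in the machinery, 22 and 0 in the control list, and 10381 and 115 among all genes. Without scaling these were 8 and 0, 40 and 0, 20 and 0, and 9436 and 144. The count of lower members, 2 in the main setting, was thus 0 with spike-in scaling and without scaling. It was also 0 with quantile scaling, loess, normexp followed by either scaling, and the value table. In the remaining alternatives at 2-fold it stayed 2. For the machinery, with 10 lower genes in the main setting, the number was 6 by quantile scaling, 5 by loess, 2 by normexp and the 75th percentile, 3 by normexp and quantiles, 3 in the value table and 6 for bright probes alone. The value table gave 1 machinery gene higher. Control genes lower, 1 in the main setting, numbered 0 with normexp followed by either scaling and in the value table.

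Among all genes, 1666 higher and 2252 lower in the main setting, the value table had 2888 higher and 1074 lower genes. Dropping the filter on dim probes gave 3108 and 8013, and keeping bright probes alone gave 902 and 1324. Lower genes were 1146 by normexp and the 75th percentile and 847 by normexp and quantiles. By construction of the threshold, 1.5-fold gave 1 machinery gene higher and 24 lower, 5 control genes lower, and 2617 and 4065 of all genes higher and lower. At 4-fold these were 0 members, 0 machinery genes and 0 control genes lower, 1 control gene higher, and 485 and 390 of all genes.

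Genes lower in the main setting stood above 0 with spike-in scaling and, second, without scaling: Map1lc3b at 0.70 and 0.49, Ulk1 at 0.71 and 0.50, Pik3c3 at 0.79 and 0.58, Atg9b at 0.66 and 0.45, Wipi1 at 0.83 and 0.62, Atg4d at 0.41 and 0.20, Gabarap at 0.87 and 0.66, Ccpg1 at 0.36 and 0.15, and Deptor at 0.62 and 0.41. Nbr1 at 0.10, Retreg1 at 0.075 and the acinar median at 0.0022 did so with spike-in scaling only. Nrdc stayed below 0 in all 10 alternatives of the analysis plan that gave it a value, from -3.21 to -1.31.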
